A study of Homo sapiens with 6 samples.

Results

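The 13 protein-coding genes of the human mitochondrial genome and 24 nuclear genes that copy it, transcribe it and process or protect its RNA were measured by RNA sequencing. These 37 genes, of 46427 in the gene table, were chosen by name, and the 13 were those whose transcripts the deposited transcript table places on the mitochondrial chromosome. The cells were MDA-MB-231/RR, a radioresistant derivative of MDA-MB-231, a triple-negative human breast cancer line. The 6 libraries comprised 3 controls, which received neither compound as far as the labels say, and 3 samples co-treated with oTR and melatonin. oTR is ortho-topolin riboside, a plant cytokinin built on adenosine, and melatonin is the hormone of the pineal gland. Both groups share the cell line, so the radioresistance is common to all 6 libraries, and no parental line or single-compound group enters the comparison. For doses, exposure times and the derivation of the resistant line, the values were not given in the sources used here. Per the series' design text, the question was whether the combined treatment is more toxic than either compound alone through changes in metabolites and transcripts.

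Mitochondrial DNA is a small circle that encodes subunits of respiratory complexes I, III and IV and of ATP synthase, together with the 2 rRNAs and 22 tRNAs of the organelle's own ribosomes. Each strand is transcribed as a long precursor from promoters in the control region, the heavy strand carrying the template of 12 of the mRNAs and the light strand that of ND6. Excision of the tRNAs frees the mRNAs and rRNAs between them, so genes copied together can still end at very different levels through processing and decay. Every protein that performs these steps is made from nuclear genes and imported. Breast cancer cells draw on respiration as well as glycolysis, and the mitochondrial mRNAs are among the most abundant in most cultured lines.

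Pairs of neighbours in this compact genome share bases, and 2 such pairs matter for the values below because a read from the shared stretch belongs to both genes. The end of ATP8 and the start of ATP6 (chrM:8512-8587, plus strand) and the end of ND4L and the start of ND4 (chrM:10745-10781, plus strand) are printed 5′ to 3′ from the GENCODE 29 transcripts on GRCh38. Capitals mark the overlap, which is 46 bases for ATP8 and ATP6 and 7 bases for ND4L and ND4, and both stretches open with the ATG of the downstream gene.
ATP8 end and ATP6 start: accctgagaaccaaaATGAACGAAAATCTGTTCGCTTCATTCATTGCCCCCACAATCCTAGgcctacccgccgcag
ND4L end and ND4 start: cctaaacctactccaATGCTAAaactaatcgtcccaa

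Estimated counts summed to between 50569611 and 72309015 per library. Of the 16557 genes that passed a filter on low counts, 33.7% were called different between the groups (edgeR's quasi-likelihood test, Benjamini-Hochberg adjusted p under 0.05). The labels do not state separate cultures for the samples within a group, and the p-values therefore reflect the spread between these 3 and 3 samples, possibly only technical. Levels are given as CPM, estimated counts scaled by library size. Of 12 mesenchymal or basal markers 11 passed the filter, with VIM at 1957 to 2248 CPM, whereas TNFRSF11B reached at most 0.0859 CPM. Of 11 luminal markers 7 passed. The hormone receptor PGR was listed at 0 and ESR1 reached at most 0.0387 CPM. Among those that passed, KRT8 stood at 466 to 586 CPM, KRT18 at 316 to 388 CPM and KRT19 at 88.7 to 109 CPM. Of 8 blood and immune markers only CD68 passed the filter, with PTPRC, HBB and HBA1 at 0. The 9 markers of fibroblasts and endothelium summed to between 28.5 and 33.2 CPM in control and between 25.8 and 27.3 CPM in co-treated libraries, with DCN at 0. Their part in the results was not tested. Change went with gene length over the whole table. Outside the mitochondrial genome, the 1611 tested genes shorter than 1000 bases had a median log2 fold change of -0.18, with 23.96% called lower and 2.30% higher, whereas the 8301 genes of 3000 bases and over had a median of 0.07, with 12.9% lower and 24.5% higher. Of the 13 mitochondrial mRNAs, which span 207 to 1812 bases, 8 are shorter than 1000 bases. Nuclear rRNA genes also took a larger share of the counts in co-treated libraries (0.551%, 1.07% and 0.479%) than in control libraries (0.347%, 0.370% and 0.294%). The part of nuclear rRNA in the calls was not tested. Where removal of the length trend changed the call of a named gene or the counts of a list, this is said beside it. For the 24 nuclear genes it is said after all their values.

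All 37 genes passed the filter. Among the 13 mRNAs, 5 fell (ND1, ND2, COX2, COX3 and ND4L), 1 rose (ND5) and 7 did not pass the test. With the length trend removed 1 mRNA fell and 3 rose, and on log2(TPM + 1) 1 fell and 1 rose. Over all tested genes 17.1% were called lower and 16.6% higher. The median log2 fold change of the 13 was -0.14, with a range from -0.38 to 0.12, against 0.00 over all tested genes, and -0.06 without control 2. Among the 24 nuclear genes, 8 fell (SLIRP, HSD17B10, TWNK, TFB2M, FASTKD3, PNPT1, ELAC2 and FASTKD2), 1 rose (MTERF2) and 15 did not pass, with a median of -0.11. Both medians depend on the scale. On log2(TPM + 1), where TPM scales by gene length as well as library size, they were 0.00 and 0.01 beside 0.09 over all genes. After removal of the length trend the median was 0.03 for the mRNAs and -0.18 for the nuclear genes. Values from bulk RNA cannot tell fewer mitochondria or fewer genome copies per cell from less RNA per genome.

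The 13 mRNAs together held 4.39%, 4.81% and 4.39% of all gene counts in the control libraries. In the co-treated libraries they held 4.31%, 4.10% and 4.48%. The groups overlapped, with means of 4.53 ± 0.244% (SD, n = 3) and 4.30 ± 0.189% (SD, n = 3), and the difference did not exceed the spread between libraries (p = 0.4, two-sided exact permutation test over 20 splits, of which the smallest attainable p is 0.1). As a share of TPM, a scale that divides by gene length, the direction turned, to 12.04 ± 0.722% in control and 12.1 ± 0.529% in co-treated cells (SD, n = 3, exact permutation p = 1.0). This test and the 16 other shares and ratios were adjusted together, and the lowest adjusted p was 0.34. The summed share of the 13 mRNAs therefore did not separate the groups on either scale. With 3 libraries a group and a smallest attainable p of 0.1, the test could not have called a change. A share of counts or of TPM is also relative to all other genes, and does not measure the output of the mitochondrial genome.

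Levels differed widely between mRNAs that come from the same precursor, which all of those below except ND6 share. By TPM in control cells, COX3 (14379 ± 235), ATP6 (14145 ± 1437), ND2 (13599.9 ± 1385), ND4L (12794 ± 477), ATP8 (12595 ± 1428), COX1 (12578 ± 618), COX2 (12381.5 ± 495) and ND4 (11909.5 ± 1753; SD, n = 3 for each) formed a high group. Neighbours within that group did not differ beyond their spread. ND3 followed at 6086 ± 591 TPM, then ND1 at 3498 ± 198, CYTB at 2648 ± 138 and ND6 at 2410 ± 206. CYTB and ND6 lay within their joint spread of each other, and ND5 was lowest at 1358 ± 33.9 TPM (SD, n = 3). Co-treated cells kept the same lowest gene, ND5, at 1615 ± 79.98 TPM, while ATP8 stood at the top of a tightly packed high group at 14127 ± 1014 TPM.

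**Figure D1:**
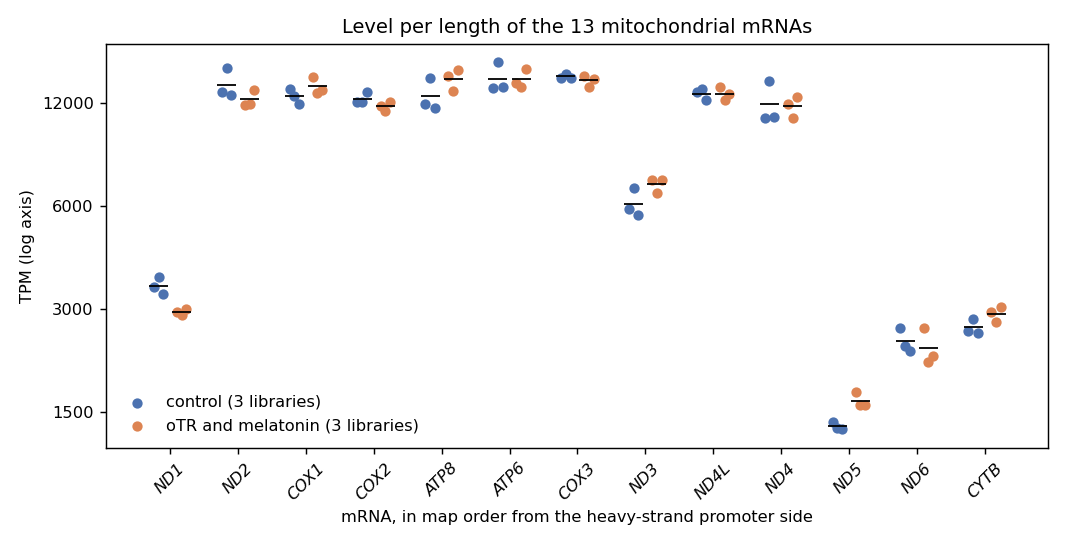
Level of the 13 mitochondrial mRNAs in each library, as TPM on a log axis, with genes in map order, 3 control and 3 co-treated points per gene and bars at their means. ND1 is the gene whose co-treated points sit clearly below its control points, ND5 is the lowest gene and its co-treated points sit above, and in most other genes the points of the groups mix.

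Complex I, the NADH dehydrogenase that opens the respiratory chain, takes 7 of its subunits from this genome, and 3 of their mRNAs fell and 1 rose. Counts by complex, here and below, stand beside 17.1% called lower and 16.6% called higher over all tested genes. ND1 (Entrez 4535, chrM:3307-4262), a membrane subunit beside the quinone site, had the largest fall of the 13. It measured 1547, 1655 and 1533 CPM in control libraries and 1189, 1192 and 1252 CPM in co-treated libraries. Every co-treated value lay below every control value, a fall of 23.3% (log2 fold change -0.38 ± 0.04 SE, edgeR adjusted p = 0.000122). ND2 (Entrez 4536, chrM:4470-5511), a proton-pumping membrane subunit, measured 6290.5, 7388 and 6382 CPM in control and 5224, 5360.0 and 6007 CPM in co-treated libraries. The groups did not overlap, although the highest co-treated library came close to the lowest control (log2 fold change -0.27 ± 0.07 SE, edgeR adjusted p = 0.00828). ND4L (chrM:10470-10766), the smallest of these subunits, gave 1796, 1825 and 1759.6 CPM against 1677, 1573 and 1661 CPM, a fall of 0.13 on the log2 scale (edgeR adjusted p = 0.0234). That call was among the weakest: it was lost without control 1 (adjusted p = 0.0771), control 2 (0.0501), co-treated 2 (0.0864) or co-treated 3 (0.054), on library size alone (0.167) and on both TPM scales, and the log2 fold change was 0.07 with the length trend removed.

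ND5 (Entrez 4540, chrM:12337-14148), the largest of the mitochondrial subunits and a distal proton-pumping one, moved the other way. Its mRNA measured 1180.5, 1138 and 1166 CPM in control libraries and 1309, 1231 and 1243 CPM in co-treated libraries, so that every co-treated value was the higher. The rise was small (log2 fold change 0.12 ± 0.04 SE, edgeR adjusted p = 0.0405). It did not pass when any one of control 1, control 2, control 3, co-treated 1 or co-treated 3 was left out, with adjusted p from 0.0773 to 0.113 in edgeR. On log2(TPM + 1) ND5 was higher by 0.25 (limma adjusted p = 0.00848). ND4, a further proton-pumping subunit, did not pass (log2 fold change -0.15 ± 0.08 SE, edgeR adjusted p = 0.192), and control 2 at 8960.1 CPM stood well above the range of the other 5 libraries, 6470 to 7535 CPM. ND3 showed 949, 1090.5 and 942 CPM in control and 1048, 981 and 1088 CPM in co-treated libraries (log2 fold change 0.06, edgeR adjusted p = 0.454). With the length trend removed ND3 was called higher (0.26, adjusted p = 0.00911).

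ND6 (Entrez 4541, chrM:14149-14673) is the only mRNA read from the light-strand precursor. It measured 647, 572 and 572 CPM in control libraries and 587, 475 and 502 CPM in co-treated libraries. Control and co-treated values overlapped through co-treated library 1, and the difference did not pass (log2 fold change -0.20 ± 0.08 SE, edgeR adjusted p = 0.0692). ND6 was called lower by DESeq2 (adjusted p = 0.02) and without co-treated 1 (-0.29, edgeR adjusted p = 0.00555), and its log2 fold change was 0.00 with the length trend removed. The log2 ratio of ND6 to the sum of the 12 heavy-strand mRNAs was -6.09, -6.40 and -6.29 in control libraries. It was -6.15, -6.38 and -6.44 in co-treated libraries, a difference of -0.07 that was smaller than the SD of either group (two-sided exact permutation p = 0.6, adjusted 0.85). The ratio thus did not separate the groups, and without control 1 the difference had the opposite sign. As strandedness is not known, reads over ND6 cannot be assigned to a strand. The ratio therefore cannot settle whether the balance of the strands changed.

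CYTB (chrM:14747-15887), the only complex III subunit encoded here, measured 1380.0, 1493 and 1405 CPM in control libraries and 1415, 1355 and 1515 CPM in co-treated libraries. Its log2 fold change was 0.00 ± 0.05 SE (edgeR adjusted p = 0.978). Complex IV, cytochrome c oxidase, has its catalytic core encoded by COX1, COX2 and COX3, of which 2 fell. COX2 (Entrez 4513, chrM:7586-8269), which takes electrons from cytochrome c, measured 3859, 3863 and 4283 CPM in control and 3412, 3364 and 3625.5 CPM in co-treated libraries (log2 fold change -0.21 ± 0.05 SE, edgeR adjusted p = 0.00686). COX3 (Entrez 4514, chrM:9207-9990) went from 5209, 5360.1 and 5400.3 CPM to 4772, 4544 and 4870.1 CPM, again without overlap (-0.17 ± 0.04 SE, edgeR adjusted p = 0.00432). COX1, which holds the haem and copper centre where oxygen is reduced, did not pass: its 6 libraries ranged from 8529 to 9493 CPM (log2 fold change -0.04 ± 0.04 SE, edgeR adjusted p = 0.516). The falls of ND2, COX2 and COX3 were not called on the TPM scale or with the length trend removed, where their log2 fold changes were -0.15, -0.035 and -0.01 without the trend. ND1 was called lower in all 15 alternatives, with log2 fold changes from -0.41 to -0.25.

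ATP6 and ATP8, subunits of the membrane part of ATP synthase, are translated from a shared mRNA through the overlap printed above. ATP6 did not pass (log2 fold change -0.14 ± 0.07 SE, edgeR adjusted p = 0.143) and neither did ATP8 (0.04 ± 0.07 SE, adjusted p = 0.742), although with the length trend removed ATP8 was called higher (0.24, adjusted p = 0.0241). Their ratio in TPM nevertheless separated the groups, at 0.898, 0.901 and 0.871 in control and 1.04, 0.974 and 0.994 in co-treated libraries. With 3 libraries a group this reached the smallest p the design allows (exact permutation p = 0.1, adjusted 0.34). In the other overlapping pair, the ND4L to ND4 ratio was 1.19, 0.945 and 1.12 in control and 1.12, 1.13 and 1.02 in co-treated libraries, and the groups overlapped (exact permutation p = 0.8). Reads of a shared mRNA were apportioned between genes by the authors' estimate, which limits both ratios.

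A view that needs no normalization factor is the make-up of the mitochondrial mRNA pool, each gene as a percentage of the counts of the 13. ND1 held 3.46%, 3.39% and 3.39% of the pool in control and 2.82%, 2.97% and 2.84% in co-treated libraries. ND2 went from 14.4 ± 0.603% to 13.1 ± 0.649% (SD, n = 3), also without overlap. Higher shares without overlap were found for ND3 (2.15 ± 0.0788% to 2.47 ± 0.0219%), ND5 (2.52 ± 0.164% to 3.00 ± 0.153%), CYTB (3.09 ± 0.0238% to 3.39 ± 0.0435%) and ATP8 (2.66 ± 0.141% to 2.99 ± 0.0967%; SD, n = 3 for each). Each of these 6 had the smallest attainable exact permutation p of 0.1, which is 0.217 after adjustment over the 13 genes. In the other 7 genes the groups overlapped. For comparison, the CPM groups did not overlap in 47.4% of all tested genes, a rate for levels and not for shares of a pool. The 7 complex I mRNAs held 44.4 ± 1.71% of the pool in control and 43.1 ± 0.582% in co-treated cells, and the 3 complex IV mRNAs 40.0 ± 2.24% and 40.7 ± 1.09% (SD, n = 3, exact permutation p = 0.3 and 0.8). By complex, the groups overlapped.

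The remaining genes of the circle are the 12S and 16S rRNAs of the mitochondrial ribosome, RNR1 and RNR2, and the 22 tRNAs. Beside 17.1% called lower and 16.6% called higher over all tested genes, 8 of these 24 genes fell and 0 rose. The other 16 did not pass, and the median log2 fold change of the 24 was -0.25. With the length trend removed 4 fell: RNR1, TRNM, TRNY and TRNE no longer passed (edgeR adjusted p from 0.0538 to 0.97), and TRNV was at -0.30. At an unadjusted p under 0.05 edgeR also gave 0 higher and 13 lower. By adjusted p, DESeq2 gave 0 higher and limma on TPM 1. Both rRNAs fell: RNR2 from 1365 ± 31.0 to 1141 ± 44.7 CPM (log2 fold change -0.26 ± 0.04 SE, edgeR adjusted p = 0.000962) and RNR1 from 417 ± 8.01 to 378 ± 6.10 CPM (-0.14 ± 0.04 SE, adjusted p = 0.0215). Together they held 0.177%, 0.176% and 0.170% of the counts in control and 0.160%, 0.156% and 0.149% in co-treated libraries. The largest falls belonged to TRNF, the phenylalanine tRNA (13.4 ± 0.589 to 7.25 ± 0.278 CPM, SD, n = 3, log2 fold change -0.89 ± 0.07 SE, edgeR adjusted p = 2.12e-05), and TRNL1, a leucine tRNA (22.7 ± 1.68 to 13.9 ± 0.196 CPM, -0.70 ± 0.07 SE, edgeR adjusted p = 5.78e-05). The tRNA values are small and come from genes of 59 to 75 bases, and the size selection of RNA fragments is not known here. The call of RNR1 was lost on library size alone, on TPM, with the length trend removed (log2 fold change 0.00) and without control 1, control 3 or co-treated 3. That of RNR2 was lost on both TPM scales (log2 fold change -0.13 on log2(TPM + 1), limma adjusted p = 0.129).

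In map order from the heavy-strand promoter, the genes are TRNF, RNR1, TRNV, RNR2, TRNL1 and ND1, and all 6 of them fell. Of the 31 genes after ND1, 7 fell and 1 rose, beside 17.1% called lower and 16.6% called higher over all tested genes. TRNV, the valine tRNA, had a log2 fold change of -0.53 (edgeR adjusted p = 0.00127), and TRNF, TRNV, TRNL1 and ND1 were each called lower in all 15 alternatives. This run was singled out after its values were seen. Over the 12 heavy-strand mRNAs, the map position of the start and the log2 fold change had a Pearson r of 0.69 and a Spearman rho of 0.62, whereas length and log2 fold change over the 13 had an r of 0.13 and a rho of -0.01. These correlations are across genes of the same 6 libraries that share precursors, and they are given as a description.

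**Figure D2:**
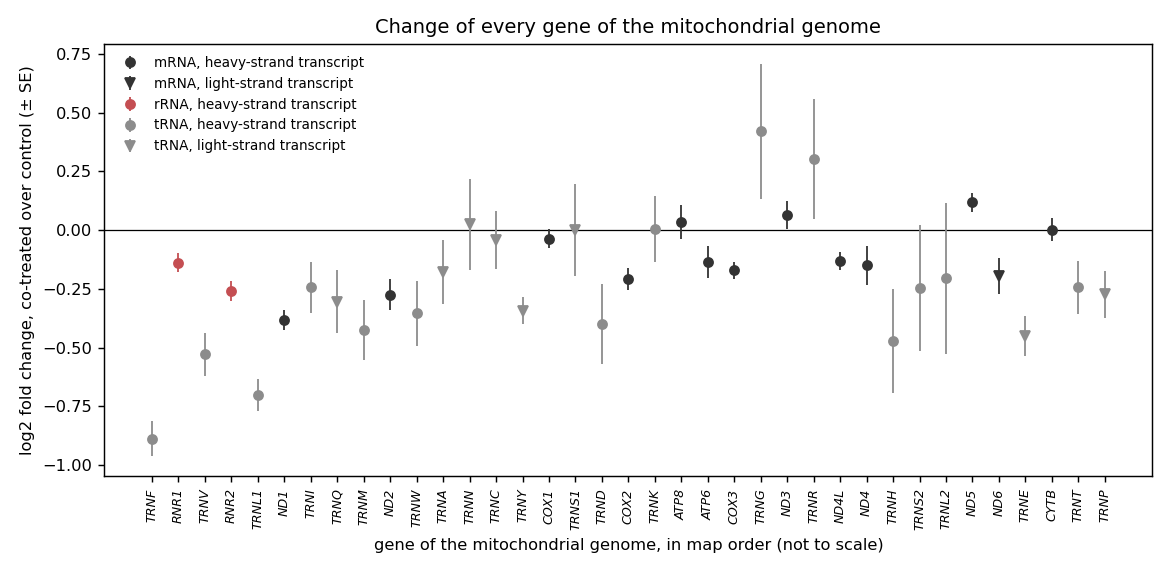
Log2 fold change (co-treated over control, with standard errors) of the 37 genes of the mitochondrial genome in map order, with mRNAs, rRNAs and tRNAs and the coding strand marked. The 6 genes at the left, from TRNF to ND1, lie between -0.89 and -0.14, and ND5 towards the right lies at 0.12.

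Among the 9 factors of transcription, 1 fell, 1 rose and 7 did not pass. Counts by role, here and below, stand beside 17.1% called lower and 16.6% called higher over all tested genes. The mitochondrial RNA polymerase POLRMT measured 68.3 ± 6.03 CPM in control and 61.0 ± 4.74 CPM in co-treated cells and did not pass (log2 fold change -0.16 ± 0.07 SE, edgeR adjusted p = 0.106). TFAM, which bends promoter DNA and packages the genome into nucleoids, was at 176 ± 8.38 and 163 ± 7.18 CPM (SD, n = 3), and did not pass either (-0.11 ± 0.05 SE, adjusted p = 0.106). TFB2M (Entrez 64216, chr1:246540561-246566261), the factor that opens the promoter together with the polymerase, did fall. It measured 25.6, 25.5 and 23.8 CPM in control libraries and 19.8, 18.4 and 21.2 CPM in co-treated libraries. The groups did not overlap (log2 fold change -0.33 ± 0.07 SE, edgeR adjusted p = 0.00369), and on log2(TPM + 1) the fall was 0.19 with a limma adjusted p of 0.0598. Its paralogue TFB1M, a methyltransferase of the 12S rRNA, had 12.3 ± 1.05 and 11.5 ± 0.929 CPM (log2 fold change -0.10, edgeR adjusted p = 0.427).

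TEFM, the elongation factor that keeps the polymerase on the template, measured 11.1 ± 0.114 CPM in control and 12.2 ± 0.518 CPM in co-treated cells (SD, n = 3). Its groups did not overlap, which was so in either direction for 47.4% of the tested genes, but its test did not pass (log2 fold change 0.13 ± 0.07 SE, edgeR adjusted p = 0.16). Of the mTERF family of organelle nucleic-acid-binding proteins, MTERF2 rose from 7.15, 6.63 and 6.56 CPM to 7.80, 7.86 and 8.48 CPM (0.25 ± 0.08 SE, edgeR adjusted p = 0.0361). Its span shares 1182 bases with TMEM263, a gene at 75.7 CPM in control and 99.6 CPM in co-treated cells. As strandedness is not known, reads of the pair cannot be told apart, and the call was lost without control 2, control 3 or any of the 3 co-treated libraries (edgeR adjusted p from 0.0537 to 0.126). MTERF1, which binds the tRNA-Leu gene downstream of the rRNAs, MTERF3 and MTERF4, a partner of an rRNA methyltransferase in ribosome assembly, had log2 fold changes of -0.07, -0.01 and -0.14 (edgeR adjusted p = 0.557, 0.94 and 0.0749).

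Of the 3 replication genes, 1 fell and 2 did not pass. TWNK (Entrez 56652, chr10:100987543-100994403), the helicase Twinkle that unwinds mitochondrial DNA, measured 75.4, 71.9 and 73.8 CPM in control and 52.2, 52.7 and 54.0 CPM in co-treated libraries. The libraries of each group lay within a few CPM of each other and far from the other group, a fall of 28.1% (log2 fold change -0.48 ± 0.04 SE, edgeR adjusted p = 4.1e-05). POLG, the catalytic subunit of the DNA polymerase that follows the helicase, was at 107 ± 4.39 and 107 ± 1.51 CPM (SD, n = 3, log2 fold change 0.00 ± 0.05 SE, edgeR adjusted p = 0.99). Its accessory subunit POLG2 was at 18.4 ± 0.404 and 18.5 ± 0.229 CPM (0.01 ± 0.06 SE, adjusted p = 0.892). The POLG2 to POLG ratio in TPM was 0.484 ± 0.0173 and 0.487 ± 0.00618 (SD, n = 3, exact permutation p = 0.9). POLG overlaps FANCI and POLG2 overlaps MILR1, and reads there cannot be assigned by strand. The same limit holds for other nuclear genes. Among them, the span of TFB1M shares 27853 bases with TIAM2, that of MTERF4 23401 with SNED1 and that of FASTKD5 13347 with UBOX5.

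RNA processing genes included 2 of the 8 falls. The 5′ ends of tRNAs are cut by a ribonuclease P made of protein alone, in which TRMT10C and HSD17B10 form the tRNA methyltransferase part, and the 3′ ends by the ribonuclease Z ELAC2. HSD17B10 (Entrez 3028, chrX:53431258-53434376), also a dehydrogenase of isoleucine breakdown, measured 52.1, 48.3 and 56.5 CPM in control and 35.8, 39.0 and 37.8 CPM in co-treated libraries. That is a fall of 28.2% without overlap (log2 fold change -0.48 ± 0.06 SE, edgeR adjusted p = 0.000312). TRMT10C, its partner, was at 38.5 ± 2.99 and 39.2 ± 1.14 CPM (0.03 ± 0.06 SE, edgeR adjusted p = 0.784). The HSD17B10 to TRMT10C ratio in TPM was 2.45, 2.29 and 3.07 in control and 1.68, 1.92 and 1.87 in co-treated libraries (exact permutation p = 0.1, adjusted 0.34). ELAC2 (chr17:12991612-13018064) fell from 152, 148 and 161 CPM to 127, 131 and 134 CPM (-0.23 ± 0.05 SE, edgeR adjusted p = 0.00317).

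Genes of RNA stability and decay held the largest fall of all 37. SLIRP (Entrez 81892, chr14:77708071-77717598) is a small RNA-binding protein that forms a complex with LRPPRC and so keeps mitochondrial mRNAs stable and polyadenylated. It measured 44.8, 49.3 and 54.7 CPM in control libraries and 30.4, 31.8 and 33.8 CPM in co-treated libraries. The fall was 35.5% (log2 fold change -0.63 ± 0.07 SE, edgeR adjusted p = 0.000139), and the groups were far apart. LRPPRC, the large partner, was at 383 ± 18.5 and 356 ± 9.72 CPM and did not pass (-0.10 ± 0.05 SE, edgeR adjusted p = 0.124). With the length trend removed LRPPRC was called lower (edgeR adjusted p = 0.00331). Per length the SLIRP transcript was the more abundant, and the SLIRP to LRPPRC ratio in TPM was 1.88, 2.12 and 2.45 in control and 1.37, 1.48 and 1.54 in co-treated libraries (exact permutation p = 0.1, adjusted 0.34). These partner ratios were chosen after the genes' values had been seen. SLIRP is a short transcript of the kind that fell over the whole table, and with the length trend removed its log2 fold change was -0.43 (adjusted p = 0.000248).

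PNPT1 (chr2:55634061-55693853), the polynucleotide phosphorylase of the degradosome, fell from 101, 105 and 102 CPM to 88.1, 83.3 and 88.4 CPM (log2 fold change -0.25 ± 0.04 SE, edgeR adjusted p = 0.0017). MTPAP, the poly(A) polymerase, differed by -0.10 ± 0.05 SE on the log2 scale and did not pass (edgeR adjusted p = 0.145). In the FASTK family, RNA-binding proteins of mitochondrial RNA granules, 2 of 5 fell. FASTKD3 went from 24.4, 24.4 and 23.5 CPM to 20.5, 21.0 and 19.3 CPM (-0.25 ± 0.06 SE, edgeR adjusted p = 0.00803). Its span shares 9879 bases with MTRR, which was at 58.03 CPM in control and 51.03 CPM in co-treated cells, and the pair cannot be separated by strand. FASTKD2, which binds the 16S rRNA, went from 65.2 ± 0.632 to 58.2 ± 2.35 CPM (-0.16 ± 0.05 SE, edgeR adjusted p = 0.0193). Without control 1, control 2, co-treated 2 or co-treated 3 it no longer passed, with adjusted p from 0.0508 to 0.0839, nor did it on library size alone (0.108) or on log2(TPM + 1) (limma adjusted p = 0.661). FASTK, tied to the ND6 mRNA, FASTKD1 and FASTKD5, which acts where no tRNA marks the cleavage site, did not pass (log2 fold changes 0.11, 0.02 and -0.14; edgeR adjusted p = 0.203, 0.859 and 0.0631).

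**Figure D3:**
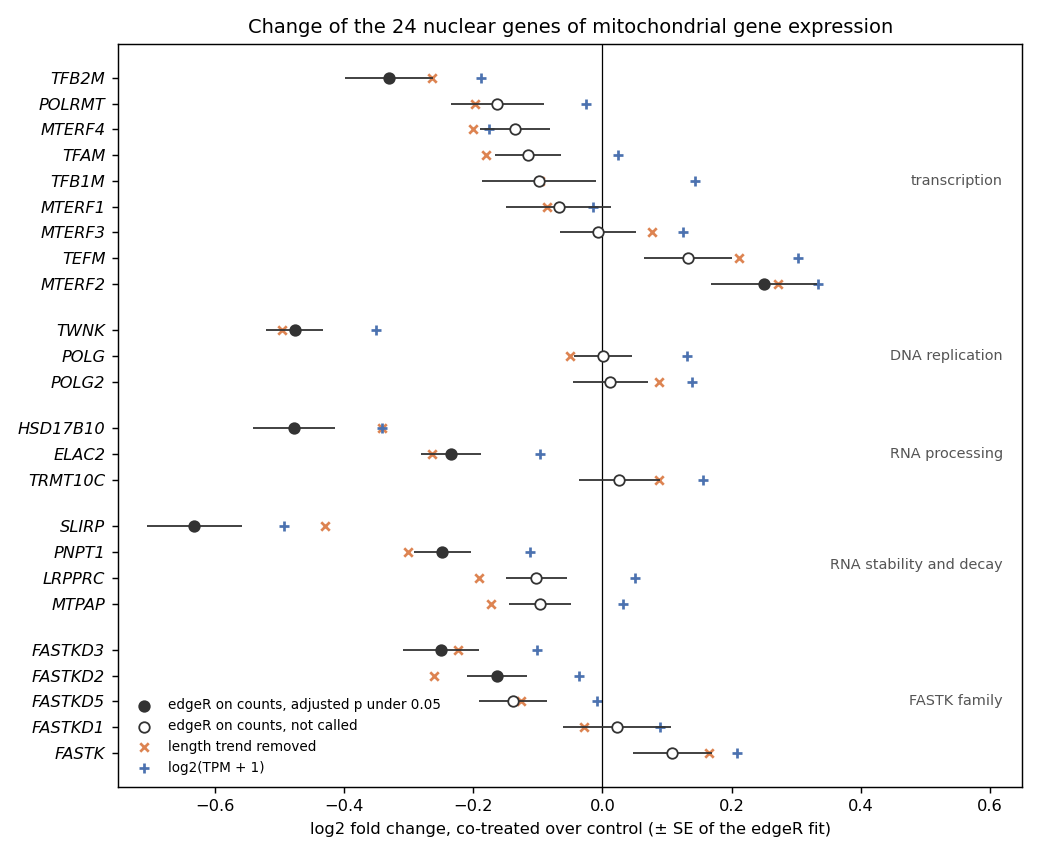
Log2 fold change (co-treated over control, with standard errors) of the 24 nuclear genes, grouped by role, with filled points for adjusted p under 0.05, crosses for the value with the length trend removed and plus signs for the log2(TPM + 1) value. SLIRP at -0.63, HSD17B10 at -0.48 and TWNK at -0.48 lie apart from the other 21, and MTERF2 at 0.25 is the only gene called higher.

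SLIRP, HSD17B10 and TWNK were called lower in all 15 alternatives, with log2 fold changes from -0.70 to -0.43, from -0.54 to -0.34 and from -0.50 to -0.35. The 11 nuclear genes whose co-treated libraries all lay below the controls compare with 24.1% of all tested genes, and the 2 in the other direction with 23.3%. TFB2M, PNPT1, ELAC2 and FASTKD3 were lost only on the TPM scale. With the length trend removed, TFAM, MTERF4, LRPPRC and MTPAP were also called lower and TEFM and FASTK higher, so that 12 fell and 3 rose.

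**Figure D4:**
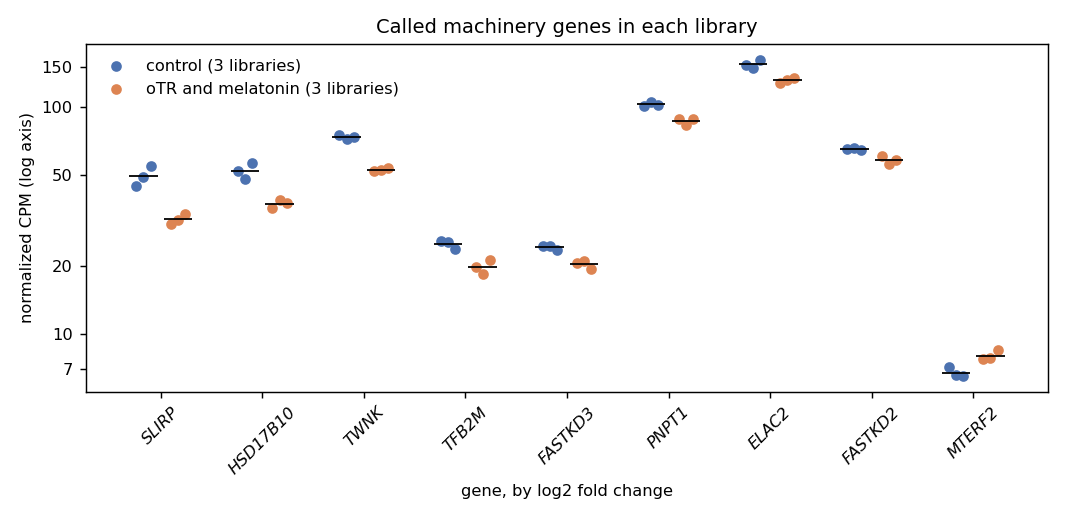
CPM in each library, on a log axis, of the 9 nuclear genes that were called different, 3 control and 3 co-treated points per gene and bars at their means. In each gene the points of the groups do not overlap, MTERF2 is the lowest in level at 6.56 to 8.48 CPM, and the separation is widest for SLIRP, HSD17B10 and TWNK.

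The gene values sum over transcripts, and their make-up was compared as the share of a gene's estimated counts in its leading transcript. Of the 24 nuclear genes, 4 had a single transcript with counts. Among the other 20 the groups did not overlap in 2, TFAM and FASTKD2, beside 12.8% of all tested genes with more than 1 transcript. In TFAM the transcript NM_003201 held 64.1%, 67.7% and 61.9% in control and 81.4%, 71.7% and 79.0% in co-treated libraries. In FASTKD2 the transcript NM_001136193 held 76.3%, 69.2% and 70.8% in control and 66.5%, 61.8% and 57.3% in co-treated libraries. SLIRP was made up of a leading transcript at 93.2% to 96.3% and HSD17B10 at 96.3% to 98.1%. These shares are estimates and were not tested.

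Nuclear genes for mitochondrial gene expression are textbook targets of NRF1, nuclear respiratory factor 1, and of the ETS factor GABP, with co-activators of the PGC-1 family. Of 14 such regulators, 12 were tested. Beside 17.1% called lower and 16.6% called higher over all tested genes, 5 of the 12 fell, 1 rose and 6 did not pass. The falls were those of PPRC1, a PGC-1 relative (191 ± 3.70 to 132 ± 1.34 CPM, log2 fold change -0.53 ± 0.04 SE, edgeR adjusted p = 1.1e-05), MYC (180.0 ± 6.596 to 125 ± 4.76 CPM, -0.53 ± 0.05 SE), GABPB1 (35.3 ± 1.69 to 26.9 ± 1.63 CPM, -0.39 ± 0.06 SE), NRF1 (23.0 ± 1.38 to 18.2 ± 1.80 CPM, -0.33 ± 0.08 SE, adjusted p = 0.00821) and PPARGC1B (26.2 ± 0.541 to 22.4 ± 1.46 CPM, -0.23 ± 0.06 SE). CREB1, a factor of cAMP signalling, rose from 54.8 ± 2.53 to 64.96 ± 4.66 CPM (0.25 ± 0.06 SE, edgeR adjusted p = 0.00925). With the length trend removed CREB1 was at 0.13 (adjusted p = 0.0643), so that 7 regulators fell and 0 rose. On log2(TPM + 1) 3 fell and 3 rose, with NRF1 (limma adjusted p = 0.0704) and PPARGC1B (0.375) no longer passing, and on library size alone 4 fell and 3 rose. GABPA, the DNA-binding partner of GABPB1, did not pass (0.18 ± 0.07 SE, adjusted p = 0.0767). Without control 1 it did, so that 2 regulators rose, and without co-treated 2 PPARGC1B no longer passed.

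RefSeq promoters (GRCh38.p14) were at hand for 21 of the 24 nuclear genes, and the 250 bases before each start were searched on both strands. The core of the NRF1 motif, read as GCGCA, any base and then GCGC, was found in 4 of them, TFAM, POLRMT, TFB1M and POLG2, against 5.07% of all 35116 promoters and 8.36% of those of tested genes. None of these 4 genes was called as reported above. TFAM was called lower with the length trend removed (edgeR adjusted p = 0.00784) and POLRMT with a replicate block (edgeR adjusted p = 0.0198). The 30 bases around each match are printed 5′ to 3′ on the gene's strand, with the core in capitals. They lie at chr10:58385337-58385366 (plus), chr19:633539-633568 (minus), chr6:155314597-155314626 (minus) and chr17:64497049-64497078 (minus), with the core 63, 24, 132 and 14 bases before the start. In POLRMT 2 overlapping matches make up the longer run of capitals.
TFAM: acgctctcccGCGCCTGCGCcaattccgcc
POLRMT: ggcgcggGCGCATGCGCAGGCGCgggccgg
TFB1M: gcaggacttaGCGCATGCGCtctcagcacg
POLG2: cacctccgttGCGCCTGCGCcgtggcctct

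The ETS core CCGGAAG was found in 8 of the 21 promoters, against 8.52% of all promoters and 13.4% of those of tested genes. Of the holders, SLIRP and ELAC2 were called lower, whereas MTERF1, MTERF4, POLG2, POLRMT, TFB1M and TRMT10C were not called. The E-box CACGTG was found in 0 of the 21, against 6.34% and 8.16%. None of the 3 motifs occurs in the windows of the called genes PNPT1, HSD17B10, TFB2M, FASTKD2, FASTKD3 and MTERF2. The same holds for FASTK, FASTKD1, LRPPRC, MTPAP, POLG and TEFM, which were not called. TWNK, which was called lower, and MTERF3 and FASTKD5, which were not called, had no promoter at hand and were not searched. A match is a description of letters, not evidence of binding.

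Further lists set the 37 genes in their pathway, to be read beside 17.1% called lower and 16.6% called higher over all tested genes. Of 40 genes of RNA modification and decay in mitochondria, 12 fell, 2 rose and 26 did not pass (median log2 fold change -0.10). On log2(TPM + 1) 7 were lower and 4 higher, and on library size alone 9 and 4. TFB1M and TRMT10C belong to both sets. The largest falls were those of QTRT1, a subunit of the queuosine tRNA transferase (21.4 ± 0.613 to 13.3 ± 0.554 CPM, -0.69 ± 0.06 SE, edgeR adjusted p = 3.7e-05), and PUS1, a pseudouridine synthase (-0.48 ± 0.07 SE). MTRES1 (0.29 ± 0.10 SE) and METTL15, a 12S rRNA methyltransferase (0.23 ± 0.07 SE), rose, and both calls were lost without control 1, control 3, co-treated 2 or co-treated 3, so that 0 genes rose, and that of MTRES1 also without control 2. Of 30 translation factors of mitochondria, 9 fell, 0 rose and 21 did not pass (median -0.13). TUFM, the elongation factor that brings tRNA to the mitochondrial ribosome, fell from 293 ± 23.7 to 222 ± 15.5 CPM (-0.40 ± 0.07 SE, edgeR adjusted p = 0.00115), and RBFA, a ribosome-binding factor, by 0.29 on the log2 scale, a call lost without control 3 or co-treated 2. At an unadjusted p under 0.05 edgeR gave 0 higher and 11 lower. By adjusted p, DESeq2 gave 0 higher, and limma on TPM and library size alone gave 1 each. The count of 9 falls was 4 without control 1 or control 3, 5 without co-treated 2 or co-treated 3, 1 on the TPM scale and 4 on library size alone.

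Over all tested genes 17.1% were called lower and 16.6% higher. Of 24 genes of mitochondrial DNA maintenance, 11 fell, 2 rose and 11 did not pass (median log2 fold change -0.10). With the length trend removed 12 fell and 3 rose. On log2(TPM + 1) 6 were lower and 6 higher, and on library size alone 11 were lower and 5 higher. CLPP, a matrix protease subunit (55.0 ± 4.07 to 40.1 ± 4.85 CPM, -0.46 ± 0.08 SE, edgeR adjusted p = 0.00204), and MPV17, an inner-membrane protein needed for genome upkeep (33.0 ± 0.855 to 24.7 ± 1.97 CPM, -0.42 ± 0.07 SE), fell most. SSBP1, the single-strand DNA-binding protein that works beside Twinkle at the replication fork, is named because of that role and after its value was seen: it fell from 65.3 ± 0.758 to 49.3 ± 2.14 CPM (-0.40 ± 0.05 SE, edgeR adjusted p = 0.000165). RRM2B, a ribonucleotide reductase subunit that p53 can induce (48.02 ± 4.03 to 59.3 ± 2.89 CPM, 0.30 ± 0.07 SE), and TK2, the mitochondrial thymidine kinase (29.3 ± 1.08 to 35.1 ± 0.919 CPM, 0.26 ± 0.05 SE), which both supply deoxynucleotides to the organelle, rose. The calls of RRM2B, TK2, CLPP, SSBP1, TUFM and QTRT1 were made in all 15 alternatives.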

How the data were processed

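RNA of 6 samples, 3 control and 3 co-treated, was sequenced, and groups come from the sample titles. Trimmomatic 0.38, HISAT2 2.1.0, Bowtie2, SAMtools 1.9, StringTie 2.1.3b and GRCh38 are named without roles, per the submitters' processing notes. The authors deposited estimated counts, as whole numbers, beside FPKM and TPM, per the file headers: each of the 326895 low transcript values examined equalled the authors' FPKM times length rounded up (tolerance 0.06 counts). The column prefix Con was taken for control and Mo for co-treated, although the labels do not define them. Strandedness and RNA selection were not given in the sources used here.

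Counts were filtered with filterByExpr (minimum count 10), scaled by relative log expression factors and tested with edgeR 4.0.16 (quasi-likelihood, Benjamini-Hochberg, 0.05). CPM carry the same factors. The test was checked on simulated data. Alternatives were TMM, library size alone, DESeq2 1.42.0, no filter, limma 3.58.1 on log2(TPM + 1) and log2(TPM + 0.1), a replicate block, a lowess length trend removed, mitochondrial genes left out of library sizes, and each library left out. Members, lists and rules were chosen with earlier results of these data known. Of each further list, the 2 largest falls and 2 largest rises at 5 CPM or more are named. In the lists, 3 second names were dropped and 1 older symbol was matched.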

Additional observations from a re-analysis of the deposited data

How the results depend on the processing

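On library size alone, which moved the median of all genes by 0.06, 2 nuclear genes rose, and log2 fold changes turned for COX1 (0.022) and MTERF3 (0.052). With DESeq2 0 nuclear genes rose, and without a count filter 0 mRNAs and 0 nuclear genes rose, with CYTB at -0.001 and POLG at -0.003. On log2(TPM + 1), 1339 genes were lower and 4516 higher over the whole table, with 1 mRNA and 3 nuclear genes lower and 4 nuclear genes higher. With the smaller pseudocount of 0.1 these were 1338, 4490, 1, 3 and 4. The shift of all genes was 0.09 and 0.12, and the turned log2 fold changes were 0.095 in both for COX1, 0.024 and 0.025 for TFAM, 0.143 and 0.156 for TFB1M, 0.125 and 0.128 for MTERF3, 0.05 and 0.051 for LRPPRC and 0.032 and 0.034 for MTPAP. With the length trend removed 1 mRNA fell, 3 mRNAs and 3 nuclear genes rose, and ND4L (0.066), ND6 (0.002), COX1 (0.042), ATP6 (0.032), POLG (-0.05), MTERF3 (0.076) and FASTKD1 (-0.028) turned. The cause was not tested.

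With single libraries left out, the mRNAs called numbered 4 to 6 lower and 0 to 1 higher, the nuclear genes 7 to 8 lower and 0 to 1 higher. Log2 fold changes then ranged from -0.041 to 0.04 for CYTB, from -0.022 to 0.121 for ATP8, from -0.033 to 0.028 for POLG, from -0.004 to 0.027 for POLG2, from -0.039 to 0.06 for TRMT10C, from -0.025 to 0.087 for FASTKD1 and from -0.04 to 0.02 for MTERF3. The difference in the share of the 13 mRNAs ranged from -0.324 to -0.0916 percentage points and was 0.0581 as a share of TPM. The log2 strand ratio differed by -0.154 to 0.019, the positive value being that without control 1. Within the pool, differences ranged from -0.682 to 0.687 percentage points for ND4, from -0.0678 to 0.072 for ND4L, from -0.134 to 0.0198 for ND6, from -0.219 to 0.226 for ATP6 and from -0.663 to 1.37 for complex IV, and on TPM the difference was -0.0642 for ND4L. The ND4L to ND4 ratio differed by -0.0664 to 0.0579, and POLG2 to POLG by -0.00671 to 0.00903. The TPM version of the pool and the single-library values of shares and ratios were added after seeing the data.

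Deviations from the group mean correlated at 0.1807, -0.01242 and 0.0737 between same-numbered libraries, and at -0.1462 to 0.07076 between different-numbered ones. These few small values cannot decide whether the numbers pair the samples, and the labels do not say. With a replicate block, 6 mRNAs fell and 1 rose, and 9 nuclear genes fell and 1 rose, ND6 (adjusted p = 0.00171) and POLRMT (0.0198, edgeR) being the genes gained, and 2 regulators rose.

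TMM and leaving mitochondrial genes out of the library sizes gave the same counts of called mRNAs and nuclear genes as reported. Counting precision did not limit the mRNAs: ND6, the least counted mRNA, had 24549 to 40760 estimated counts, whereas tRNA genes had as few as 16.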
